A study of Xenopus laevis with 12 samples.

Results

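Animal caps of Xenopus laevis labelled as injected with kctd15 mRNA were compared with caps labelled as injected with lacZ mRNA, in which no inducer was given and the ectoderm was left to form epidermis. The members of the comparison are 6 of the 12 arrays of the series, picked by their sample titles: 3 arrays of caps labelled kctd15 and 3 of caps labelled lacZ. The other 6 arrays hold caps that received wnt3a and chordin mRNA, 3 of them with kctd15 added and 3 without, and serve here to show where the response in plain caps differed. In all 4 groups the embryos were injected at the 2-cell stage, the caps were cut at stage 9 of Nieuwkoop and Faber and collected at stage 15, and total RNA was read on an Affymetrix 3' expression array. No genetic change is given for the embryos, the controls carry lacZ mRNA, and the dose of each mRNA and the number of caps behind a sample are not given in the labels. Nor do the labels say whether the replicates stem from different clutches, so p-values measure the spread among these samples only. With 3 arrays a group, precision is limited.

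The animal cap is the pluripotent roof of the blastula, and on its own it becomes epidermis under BMP signalling, with a keratin-rich surface layer, mucus-secreting cells, ionocytes and multiciliated cells above a basal layer that depends on the transcription factor p63. Kctd15 is a small protein with a BTB domain that is known in frog and zebrafish to block neural crest formation and to bind and inhibit AP-2 factors, which epidermis as well as crest needs. Chordin is a secreted BMP antagonist and Wnt3a a Wnt ligand, and together they turn caps towards neural crest. Values below are log2 expression of a probe set as deposited, and differences are log2 fold changes of caps labelled kctd15 minus lacZ caps with their standard error (SE). The SE came from a fit to all 12 arrays, so the spread within the wnt3a and chordin groups entered it. A probe set was called, and only then said to have risen or fallen, where limma gave a two-sided p below 0.05 after adjustment by Benjamini and Hochberg over all 32475 probe sets tested. The suffixes .L and .S mark the long and short homeolog of a gene, and whether a probe set separates them was not tested.

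The 1 probe set for kctd15.L went against the labels. It stood at 4.17, 3.77 and 6.43 in the 3 arrays of caps labelled kctd15, against 11.22, 10.96 and 10.70 in the lacZ arrays, a log2 fold change of -6.17 (SE 0.80, limma adjusted p = 0.00142). The 3 arrays labelled kctd15 all lay below the lacZ arrays. Where these probes lie relative to the injected mRNA is not given, so they cannot show whether that mRNA was present, and every direction below rests on the labels. The array also carries a reporter probe set for the bacterial lac operon, which read 13.53 ± 0.54 in caps labelled kctd15 and 14.24 ± 0.32 in lacZ caps (SD, n = 3 each), so both groups gave a high lac signal although the labels name lacZ for the lacZ caps alone. The other 3 lac probe sets averaged 3.99 to 6.65 in caps labelled kctd15 and 3.92 to 6.39 in lacZ caps. Of 13 measured genes of the KCTD family, kctd15.L was the 1 called (7.69%, against 8.37% of all genes).

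Most epidermal markers were high in all 6 arrays. The larval keratin krt70.S read 15.41, 15.39 and 15.34 in caps labelled kctd15, against 15.31, 15.31 and 15.26 in lacZ caps, and the keratin krt12.4.L 14.66, 14.26 and 14.67, against 15.08, 14.98 and 15.01. Neither was called. The homeolog krt12.4.S read 12.90, 11.39 and 13.80 in caps labelled kctd15, against 15.10, 14.95 and 14.95 in lacZ caps, without overlap, and did not pass (-2.30, SE 1.53, adjusted p = 0.485). That SE takes in the spread of the wnt3a and chordin arrays. In the other direction, krt70.L read 14.81, 14.72 and 14.73, against 14.02, 13.89 and 14.23, without overlap and not called (0.71, SE 0.55). krt70.S lay near the highest value of these arrays, 15.58. The groups also did not overlap at the cadherin gene cdh1.S (0.36) and at epcam.L (-0.41), and neither was called. Arrays correlated with r of 0.973 to 0.986 within a group and of 0.952 to 0.98 between the 2 groups, so the ranges overlapped. lacZ replicate 3 correlated with kctd15 replicate 3 at 0.9804, above its 0.973 and 0.9773 with lacZ replicates 1 and 2. Replicate 3 of each group carried more transcript of other tissues than its partners: the mean over 29 notochord and axial mesoderm genes was 5.03, 4.88 and 5.97 in caps labelled kctd15, against 4.83, 4.87 and 6.39 in lacZ caps, and over 41 pan-neural genes 7.04, 7.12 and 7.89, against 6.48, 6.82 and 8.31. Over 53 somitic muscle genes it was 4.85, 4.63 and 5.09, against 4.73, 4.56 and 5.93, so that lacZ replicate 3 stood highest in all 3 lists. The sarcomeric actin actc1.L read 6.55, 5.38 and 7.51 in caps labelled kctd15, against 5.47, 5.18 and 11.08 in lacZ caps. Counts of list members are given without lacZ replicate 3 where leaving it out moved them by over 1.5 times. In such bulk samples fewer cells of a type and less RNA per cell cannot be told apart.

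**Figure D1:**
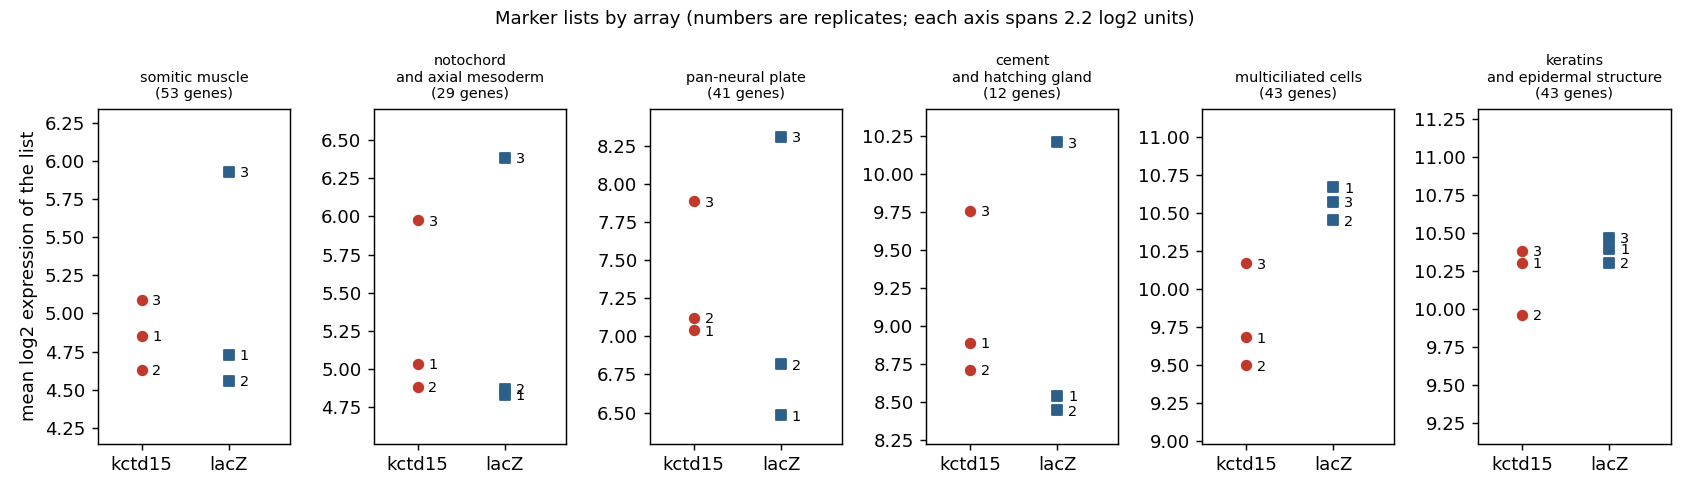
Mean log2 expression over the genes of 6 marker lists (vertical axes, each spanning 2.2 log2 units) in the 3 arrays of caps labelled kctd15 (circles) and the 3 of lacZ caps (squares), numbered by replicate. Replicate 3 is the highest of its group for muscle, notochord, pan-neural and cement gland genes, and the multiciliated genes lie lower in all 3 arrays labelled kctd15.

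Caps labelled kctd15 differed from lacZ caps at 2269 of the 32475 probe sets, 6.99%, of which 869 (2.68%) were higher and 1400 (4.31%) lower. At least a 2-fold difference was reached by 419 of the higher and 869 of the lower, and at least a 4-fold difference by 87 and 286. All 3 differences between arrays of the same replicate number had the sign of the call at each of the 869 and of the 1400 probe sets, which the test itself favours. An unadjusted p under 0.05 was reached by 6336 of the 32475 probe sets, counted without a choice among the probe sets of a gene. The median difference over all probe sets was 0.04, with 57.2% above 0. By gene, 946 of 11303 were called, 8.37%, with 382 (3.38%) higher and 564 (4.99%) lower, counting each gene by its probe set with the smallest p.

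The replicate numbers pair the arrays, and with the replicate number as a block the calls came to 4992, with 2479 higher and 2513 lower, and included all 2269. The share of calls that were lower was 50.3% with the block, against 61.7% in the main fit. List counts with the block are to be read beside this rise in calls over the whole array. Leaving out 1 array changed the count more than 1.5 times in 4 cases: it was 1312 without kctd15 replicate 1, 1355 without kctd15 replicate 2, 1386 without lacZ replicate 1 and 1367 without lacZ replicate 2. Without lacZ replicate 3 it was 1767, with 635 higher and 1132 lower.

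**Figure D2:**
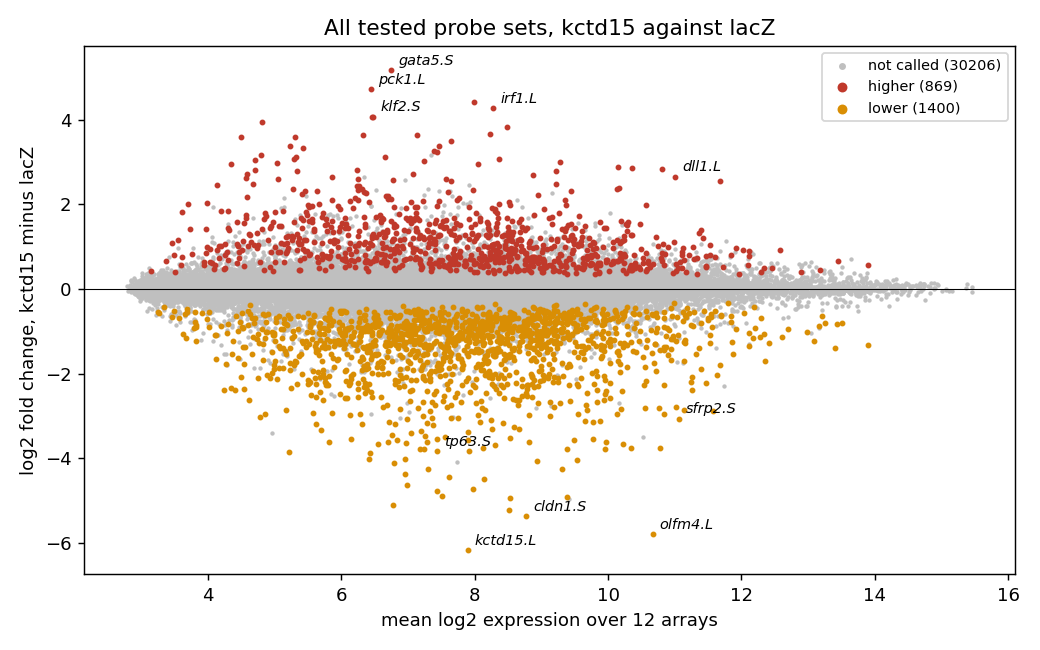
Log2 fold change of caps labelled kctd15 over lacZ caps (vertical axis) against the mean log2 expression over 12 arrays (horizontal axis) for every tested probe set, with the 869 called higher in red and the 1400 called lower in orange. The called probe sets span dim and bright signals, and the lower ones reach further from 0 than the higher ones, to -6.17 against 5.17.

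The largest increase was in gata5.S, a zinc finger transcription factor of endoderm and heart. It read 10.67, 11.25 and 11.50 in caps labelled kctd15, against 5.7, 5.55 and 6.65 in lacZ caps, a log2 fold change of 5.17 or 36.0-fold (SE 0.28, adjusted p = 1.5e-05). Its relative gata6.S read 10.25, 10.53 and 9.08, against 6.36, 6.45 and 6.14 (3.64, SE 0.42, adjusted p = 0.000776). For both genes the lowest array labelled kctd15 lay more than 2 log2 units above the highest lacZ array. Of the other genes in this branch of the family, gata6.L rose by 3.24 (SE 0.33), gata4.S by 2.80 (SE 0.44) and gata5.L by 2.65 (SE 0.29). gata4.L did not pass, with 1.90 at 1 probe set (SE 0.73, adjusted p = 0.171) and 0.15 at the other (SE 0.11, adjusted p = 0.535). At the first it read 5.38, 8.19 and 7.95 in caps labelled kctd15, against 3.93, 6.47 and 5.40 in lacZ caps. Each array labelled kctd15 thus lay above the lacZ array of the same replicate number, though the groups overlapped.

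pck1.L, which encodes phosphoenolpyruvate carboxykinase of glucose synthesis, read 10.53, 10.00 and 10.66 in caps labelled kctd15, against 5.27, 5.26 and 6.51 in lacZ caps (4.72, SE 0.35, adjusted p = 9.61e-05). klf2.S, a Krüppel-like transcription factor, read 10.95, 10.87 and 10.21, against 6.61, 6.70 and 6.51 (4.07, SE 0.21, adjusted p = 1.44e-05), and both of its probe sets rose. irf1.L, an interferon regulatory factor, read 10.98, 9.57 and 10.24, against 6.56, 5.59 and 5.86 (4.26, SE 0.36), at 1 of its 2 probe sets. In these 3 genes the groups were far apart in every array, and the lacZ arrays lay below the array medians of 7.18 to 7.28. Also higher were prkca.L, protein kinase C alpha (3.64, SE 0.29), the potassium channel gene kcnk1.L (3.25, SE 0.54) and hhex.L, a homeobox gene of anterior endoderm (3.13, SE 0.50, at 2 of 2 probe sets). spam1.L, named for a hyaluronidase of mammalian sperm, rose by 3.60 (SE 0.33). acsbg2.L, an acyl-CoA synthetase gene, rose by 3.12 (SE 0.25) at 1 probe set, while its other probe sets differed by 0.09 and -0.01.

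Among the genes that fell, apart from kctd15.L, olfm4.L lay furthest from 0. This gene for a secreted olfactomedin glycoprotein read 6.28, 4.16 and 6.16 in caps labelled kctd15, against 11.65, 11.13 and 11.20 in lacZ caps, a log2 fold change of -5.79 (SE 0.65, adjusted p = 0.000697). cldn1.S, a claudin of tight junctions, read 7.10, 4.23 and 7.07, against 11.79, 11.53 and 11.18 (-5.37, SE 0.94, adjusted p = 0.0071). mmp3.L, a matrix metalloproteinase, read 7.36, 5.71 and 9.06, against 12.66, 12.59 and 11.63 (-4.92, SE 0.87, adjusted p = 0.00723). The arrays labelled kctd15 were spread widely at cldn1.S and mmp3.L, and still none reached a lacZ array.

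bcam.L, a laminin-binding adhesion molecule of basal cells in mammals, read 5.28, 4.57 and 7.12, against 10.79, 10.61 and 9.70 (-4.71, SE 0.59). cav1.L, caveolin of membrane pits, read 5.26, 3.77 and 6.29, against 9.81, 10.02 and 8.94 (-4.48, SE 0.61). gfi1b.L, a repressor of the red cell and platelet lineages in mammals, read 4.50, 4.06 and 4.30, against 8.48, 8.37 and 7.59 (-3.86, SE 0.36). Of these 3, gfi1b.L had the tightest values in caps labelled kctd15. The homeobox gene nkx2-3.S (-4.11, SE 0.42), the cadherin gene cdh26.S (-3.75, SE 0.40), gpd1.L of glycerol phosphate metabolism (-3.62, SE 0.45), snai1.S (-3.61, SE 0.53) and the lysophospholipase gene enpp2.S, autotaxin (-3.56, SE 0.50), fell as well. ctbs.S, a chitobiase gene, fell by 3.75 on the log2 scale (SE 0.81, adjusted p = 0.0191), but its call was lost without lacZ replicate 1 or 2 or kctd15 replicate 1 or 2. Replicate 3 was the highest of the arrays labelled kctd15 at mmp3.L, bcam.L, cav1.L, nkx2-3.S, cdh26.S, gpd1.L, snai1.S and ctbs.S. The same held at kctd15.L and at both tp63 homeologs, given below, but not at gfi1b.L or enpp2.S.

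**Figure D3:**
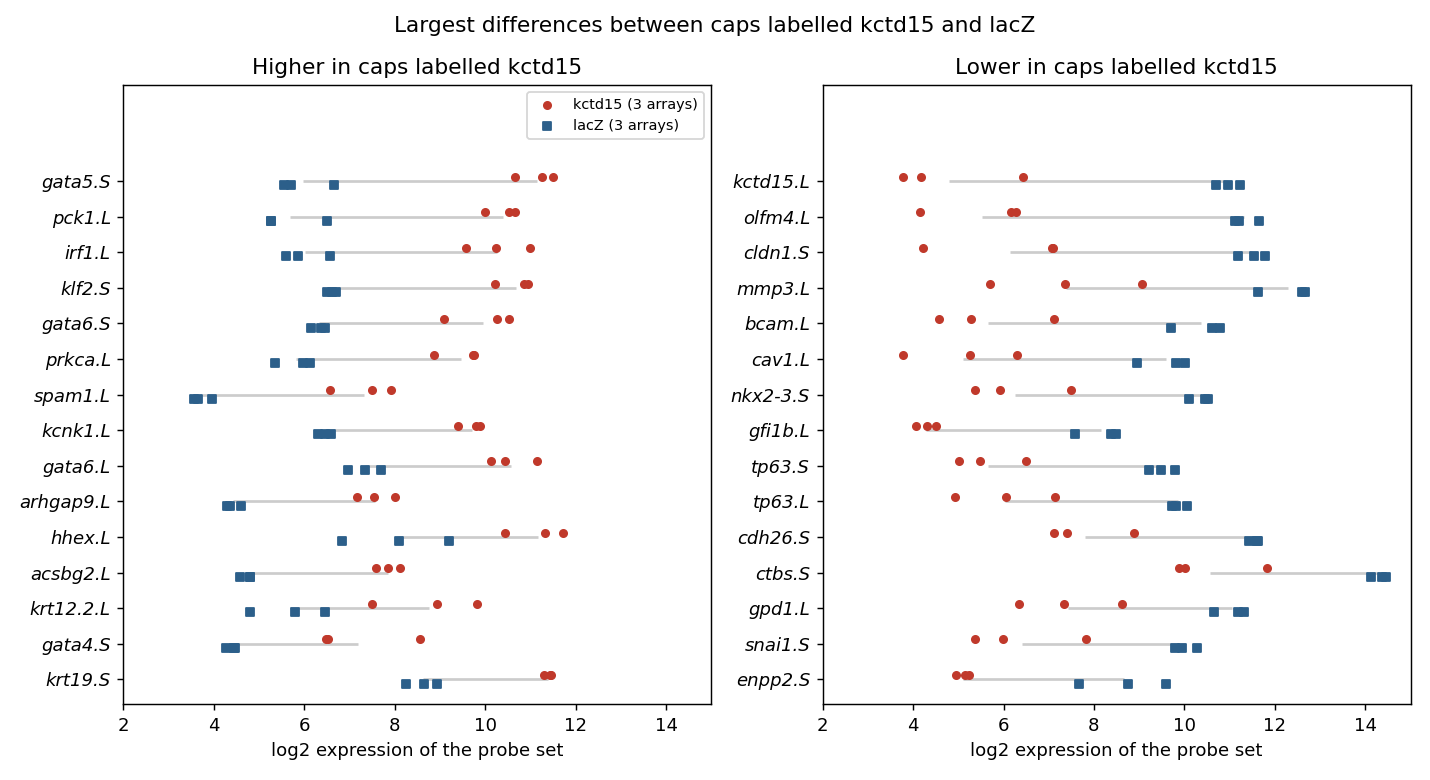
Log2 expression (horizontal axis) of the genes with the largest differences, higher on the left panel and lower on the right, in the 3 arrays of caps labelled kctd15 (red circles) and the 3 of lacZ caps (blue squares), with grey lines joining the group means. In every gene shown the 3 arrays of one group lie apart from the 3 of the other, as the rule for choosing them required.

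Both homeologs of tp63, the regulator of basal epidermal cells, fell at each of their probe sets. tp63.S read 5.48, 5.02 and 6.49 in caps labelled kctd15, against 9.48, 9.79 and 9.22 in lacZ caps (-3.83, SE 0.31, adjusted p = 0.000137), and tp63.L 6.06, 4.93 and 7.13, against 9.82, 10.05 and 9.73 (-3.83, SE 0.43, adjusted p = 0.000674). The groups did not overlap at either of these probe sets. Of 4 AP-2 genes limma called 0, and 0 had an unadjusted p under 0.05. tfap2a.L read 11.20, 11.04 and 10.98, against 11.45, 11.72 and 11.33 (-0.43, SE 0.36, adjusted p = 0.617). tfap2a.S read 10.88, 10.88 and 10.84, against 11.12, 11.52 and 11.37 (-0.47, SE 0.40, adjusted p = 0.617). At both, the arrays labelled kctd15 lay below all lacZ arrays, as at 11.5% of all probe sets. In wnt3a+chordin+kctd15 caps, whose spread enters the SE, tfap2a.S had an SD of 1.02. It was called in the 6 arrays alone with the replicate block, where calls over the whole array rose from 2269 to 5850. The grainyhead genes of the epidermal surface, grhl1.L (-0.57), grhl3.L (0.23) and grhl3.S (-0.92), did not pass. At grhl3.S the arrays labelled kctd15 read 11.53, 11.87 and 11.85, against 12.49, 12.87 and 12.63, without overlap. Its SE, taken from all 12 arrays, was 0.90, beside an SD of 0.19 in each of these groups. The groups did not overlap at this probe set of grhl1.L either, while its other probe sets differed by -0.17 and -0.004.

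Of 32 regulators of non-neural ectoderm 4 rose and 4 fell, 25% called against 8.37% of all genes, with a median of -0.18 against 0.05 over all genes. This list and those below were chosen with earlier results of these data known, and no share was tested for enrichment. dlx5.L, a homeobox gene of ventral ectoderm and the plate border, read 12.10, 12.12 and 11.75 in caps labelled kctd15, against 10.86, 11.13 and 10.58 in lacZ caps (1.14, SE 0.21, adjusted p = 0.00992). tbx3.L, a T-box gene induced by BMP, fell by 2.14 on the log2 scale (SE 0.41, adjusted p = 0.0116), a call lost without lacZ replicate 1 (adjusted p = 0.0507). The T-box gene tbx2.S rose by 1.50 (SE 0.33, adjusted p = 0.0202). Its call was lost without lacZ replicate 2 or 3 or kctd15 replicate 1 or 2, and with only the 6 arrays in the fit. The 4 higher became 1 without kctd15 replicate 1, kctd15 replicate 2 or lacZ replicate 2 and 2 without lacZ replicate 1 or 3, and the 4 lower became 2 without lacZ replicate 1.

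Genes of keratins, junctions and other epidermal structures went both ways. Of 43 measured, 2 rose and 3 fell (11.6% called, median 0.02), and with the replicate block 6 rose and 3 fell. The keratins krt12.2.L and krt19.S rose. krt19.S read 11.43, 11.45 and 11.30 in caps labelled kctd15, against 8.24, 8.66 and 8.94 in lacZ caps (2.78, SE 0.41, adjusted p = 0.0027), and 5 of its 5 probe sets rose. krt12.2.L read 9.82, 7.50 and 8.94, against 6.46, 4.81 and 5.79 (3.07, SE 0.55, adjusted p = 0.00802), a call lost with only the 6 arrays in the fit (adjusted p = 0.0535). The members that fell were cldn1.S, described above, the claudin cldn6.1.S (-2.79, SE 0.38) and the desmosomal plakophilin pkp2.L (-1.96, SE 0.24). All 5 kept their call with each single array left out.

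Genes of multiciliated cells lay mostly lower. Of 43 genes of multiciliated cells 6 fell and 0 rose by limma (14% called; at an unadjusted p under 0.05, 18 lay lower and 0 higher), and 40 of the 43 lay below 0, with a median of -0.79 and medians of -1.05, -0.90 and -0.40 in the 3 replicate differences. tekt3.L, a tektin of the ciliary axoneme, read 7.16, 6.38 and 7.56 in caps labelled kctd15, against 9.43, 9.35 and 8.78 in lacZ caps (-2.16, SE 0.38, adjusted p = 0.00679). odf2.L, part of the basal body, read 8.57, 8.65 and 8.90, against 9.64, 9.62 and 9.64 (-0.92, SE 0.14, adjusted p = 0.00304). In both genes the arrays labelled kctd15 all lay lower, and plk4.L of centriole duplication fell by 0.57 on the log2 scale (SE 0.10, adjusted p = 0.00645).

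The 3 arrays of each group did not overlap, with the kctd15 label lower, at 28 of these 43 genes, against 11.5% of all probe sets. The 28 were counted at the probe set with the smallest p per gene, which favours such gaps, and the 11.5% without that choice. Regulators of the ciliated fate did not pass, with differences of -1.05 for foxj1.L, -0.48 for foxj1.S, -0.67 for mcidas.S and -0.94 for ccno.L. In each of these the arrays labelled kctd15 lay below all lacZ arrays. The groups overlapped at rfx2.S, with 8.92, 8.83 and 9.13 against 8.95, 9.06 and 9.05 (-0.06). They also overlapped at myb.S (-0.60), and neither gene was called. The list averaged 6.54, 7.71 and 6.68 in the wnt3a+chordin+kctd15 arrays, whose spread enters the SE. The 6 lower genes became 3 without kctd15 replicate 1 or 2 or lacZ replicate 1 or 3, but 10 without kctd15 replicate 3 and 10 with the replicate block. The mean over the list was 9.69, 9.50 and 10.17, against 10.67, 10.45 and 10.57, so that kctd15 replicate 3 lay nearest to the lacZ arrays.

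Of 19 ionocyte genes 0 passed limma (1 higher and 3 lower at an unadjusted p under 0.05), with a median of 0.13. The ionocyte regulator foxi1.L read 13.19, 12.92 and 12.96 in caps labelled kctd15, against 12.09, 12.53 and 12.18 in lacZ caps (0.76, SE 0.89, adjusted p = 0.747). These groups did not overlap, with an SD of 0.14 and 0.23. The ionocyte list averaged 6.04, 7.92 and 5.96 in the wnt3a+chordin+kctd15 arrays, whose spread enters the SE. The proton pump subunit atp6v1b1.L differed by -1.97 (SE 0.70, adjusted p = 0.135). The ionocyte anion exchanger slc4a1.L read 8.05, 6.83 and 6.92, against 9.64, 9.46 and 8.29, and just missed the threshold (-1.86, SE 0.52, adjusted p = 0.0594), which it passed with the replicate block (adjusted p = 0.00155). Of the ionocyte genes 2 were called lower without lacZ replicate 3, 1 lower with the replicate block, and 2 higher with only the 6 arrays in the fit. foxa1.L, a forkhead gene of small secretory cells and also of endoderm, read 6.70, 5.85 and 6.79, against 9.84, 9.57 and 9.12 (-3.06, SE 0.58, adjusted p = 0.0105), and fell at both of its probe sets. Its homeolog foxa1.S differed by 0.17 (SE 0.70, adjusted p = 0.948). The mucus lectin itln1.L read 13.34, 13.48 and 14.27, against 14.98, 15.14 and 14.90, without overlap, and was not called (-1.31, SE 1.46, adjusted p = 0.731). Its SE also takes in the spread of the wnt3a and chordin arrays. The SD of itln1.L was 0.50 in caps labelled kctd15 and 0.12 in lacZ caps.

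Of 29 endoderm genes 6 rose and 1 fell (24.1% called, median 0.13). The 6 were the 5 gata probe sets given above and hhex.L, all of which kept their call with each single array left out, and the 1 that fell was foxa1.L, joined by 1 more with the replicate block. The endodermal sox17 genes were near the low end of the array: sox17a.S read 6.58, 6.11 and 4.58 in caps labelled kctd15, against 4.36, 4.11 and 5.36 in lacZ caps (1.14, SE 0.48, adjusted p = 0.215), and sox17b.1.L 4.57, 4.37 and 4.53, against 4.41, 4.56 and 4.52. So the gata genes and hhex.L were called, while the sox17 genes were not. The mix homeobox gene bix1.1.L, singled out after its value was seen, rose by 2.59 (SE 0.43, adjusted p = 0.00543).

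The gata genes that epidermis itself uses did not rise and were not called. gata2.L read 12.99, 13.30 and 12.79 in caps labelled kctd15, against 13.66, 13.71 and 13.42 in lacZ caps (-0.57, SE 0.71, adjusted p = 0.767). gata3.S read 9.82, 9.58 and 9.43, against 10.74, 10.87 and 9.93 (-0.90, SE 0.62, adjusted p = 0.507). At both probe sets the arrays labelled kctd15 lay below all lacZ arrays. The groups overlapped at the other probe set of each gene. The blood gene gata1.L differed by 0.14 (SE 0.20, adjusted p = 0.809). gata1.S differed by 0.14 as well (SE 0.13, adjusted p = 0.666).

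Of 52 mesoderm genes 2 rose and 8 fell (19.2% called, median -0.17), and 5 fell without kctd15 replicate 1. The 2 that rose were gata4.S and hand1.L, a heart and lateral plate regulator that read 7.12, 6.20 and 7.21 in caps labelled kctd15, against 4.39, 4.62 and 4.47 in lacZ caps (2.35, SE 0.34, adjusted p = 0.00254). apln.L, which encodes the apelin peptide of vessel development, read 4.43, 4.37 and 5.45, against 8.29, 7.70 and 7.80 (-3.18, SE 0.29, adjusted p = 0.000261). isl1.S, a homeobox gene of heart progenitors and sensory neurons, fell by 2.08 on the log2 scale (SE 0.31), and foxc1.L, a forkhead gene of paraxial mesoderm, by 2.10 (SE 0.32). Muscle genes were called in 1 of 53 (1.89%), lower, in 2 with the replicate block and in 0 without kctd15 replicate 1 or 2 or lacZ replicate 1 or 2. Blood genes were called in 3 of 29 (10.3%), with gfi1b.L lower, and runx1.L (1.74, SE 0.33) and the globin hbg1.L (2.37, SE 0.46, at 1 of 2 probe sets) higher. Without lacZ replicate 3, 2 blood genes were lower, and with only the 6 arrays in the fit runx1.L and hbg1.L lost their calls (adjusted p of 0.0715 and 0.0566).

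Neural crest genes were mostly dim in both groups. Of 43 measured, 2 rose and 8 fell (23.3% called, median -0.31). snai1.S, a repressor of epithelial adhesion genes, read 5.99, 5.38 and 7.83 in caps labelled kctd15, against 9.80, 9.95 and 10.28 in lacZ caps (-3.61, SE 0.53, adjusted p = 0.00288). ednra.S, an endothelin receptor of crest cells, read 4.08, 3.72 and 4.19, against 6.18, 6.74 and 6.74 (-2.56, SE 0.21, adjusted p = 0.000137), and fell at 3 of its 3 probe sets. These groups did not overlap. snai2.L, a crest specifier related to snai1, read 3.43, 3.47 and 3.09, against 6.82, 5.71 and 6.58, and just missed the threshold (-3.04, SE 0.81, adjusted p = 0.0515).

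The crest specifier foxd3.L was low apart from 1 lacZ array, with 3.79, 3.74 and 3.86 in caps labelled kctd15, against 3.95, 3.90 and 5.78 in lacZ caps (adjusted p = 0.639). nr2f1.S, a nuclear receptor gene, rose by 1.93 (SE 0.33, adjusted p = 0.00655). Of the 8 lower crest genes 3 remained without kctd15 replicate 1, 4 without kctd15 replicate 2 or lacZ replicate 1 and 5 without lacZ replicate 2. The number higher was 5 without lacZ replicate 3 and 1 without any other single array.

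Of 33 neural plate border genes 4 rose and 3 fell (21.2% called, median 0.28). dlx5.L was among those higher, and both homeologs of meis3, a hindbrain-promoting homeobox gene, fell: meis3.L read 8.00, 8.17 and 8.65 in caps labelled kctd15, against 9.61, 10.05 and 9.97 in lacZ caps (-1.60, SE 0.23, adjusted p = 0.00229), and meis3.S differed by -0.97 (SE 0.15). The number higher was 7 without lacZ replicate 3 and 2 without kctd15 replicate 1 or 2 or lacZ replicate 1 or 2. In the pan-neural list 1 of 41 rose and 0 fell (2.44% called). Without lacZ replicate 3, in which those genes were high, 4 rose and 0 fell, and without kctd15 replicate 3, 0 rose and 3 fell. The 1 higher gene lost its call without kctd15 replicate 1 or lacZ replicate 1 or 2. sox2.L, a general neural marker, read 7.48, 7.22 and 9.94 in caps labelled kctd15, against 6.68, 6.55 and 10.28 in lacZ caps.

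Of 29 posterior neural genes 3 fell and 0 rose by limma (10.3% called; 5 lower and 0 higher at an unadjusted p under 0.05, and 5 lower with the replicate block), and 26 lay below 0, with a median of -0.82 and replicate medians of -0.45, -1.32 and -0.82. The mean over this list was 5.84, 5.43 and 6.55 in caps labelled kctd15, against 6.40, 6.81 and 7.40 in lacZ caps, so that the groups overlapped. Of 37 anterior neural genes 2 rose and 2 fell (10.8% called), and 1 rose without kctd15 replicate 1 or 2 or lacZ replicate 2. sfrp2.S, a secreted Wnt-binding protein of the neural plate, read 8.22, 7.94 and 7.99 in caps labelled kctd15, against 11.38, 11.00 and 10.97 in lacZ caps (-3.06, SE 0.15, adjusted p = 1.44e-05). The forebrain gene emx2.L fell by 1.40 on the log2 scale (SE 0.21). hmx3.L (1.36, SE 0.25) and its placodal relative hmx2.S (2.06, SE 0.26), homeobox genes of ear and brain, rose, as did pitx3.S of the lens (1.09, SE 0.15). pitx3.S was near the low end of the array in both groups, at 4.26, 4.51 and 3.95 in caps labelled kctd15, against 2.98, 3.18 and 3.28.

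BMP pathway genes rose in 7 of 51 and fell in 4 (21.6% called, median 0.14). The falls included tbx3.L, given above, and evx1.L (-1.97, SE 0.41, adjusted p = 0.0159). The evx1.L call was lost without lacZ replicate 2 or 3 or kctd15 replicate 1 or 2. hey1.S, a target of both BMP and Notch, read 10.53, 10.88 and 10.32 in caps labelled kctd15, against 8.25, 8.31 and 8.22 in lacZ caps (2.32, SE 0.24, adjusted p = 0.000448). The BMP type I receptor gene acvr1, singled out after its values were seen, rose at both homeologs, by 1.08 for acvr1.L (SE 0.20) and 0.95 for acvr1.S (SE 0.16). Also picked out afterwards, the secreted BMP regulators twsg2.S, of the twisted gastrulation family (1.92, SE 0.12), and nog4.S, of the noggin family (1.93, SE 0.14), rose, and so did fstl3.L, a follistatin-like binding protein of activin (2.32, SE 0.22). Of the 7 higher BMP genes 3 remained without kctd15 replicate 2 and 4 without kctd15 replicate 1 or lacZ replicate 2, and of the 4 lower ones 1 without kctd15 replicate 1 or 2 or lacZ replicate 1 and 2 without lacZ replicate 2 or 3.

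Wnt pathway genes fell in 5 of 48 and rose in 1 (12.5% called, median -0.09). Receptor and ligand-binding genes made up part of these: fzd4.S, a frizzled receptor, read 6.73, 6.07 and 6.65 in caps labelled kctd15, against 8.83, 8.95 and 8.18 in lacZ caps (-2.17, SE 0.29, adjusted p = 0.00155), and sfrp2.S fell as given above. dkk1.S, a secreted antagonist of Wnt co-receptors, read 8.28, 7.80 and 8.28, against 6.45, 5.98 and 6.92 (1.67, SE 0.28, adjusted p = 0.00533), at 1 of its 2 probe sets. axin2.L, a common Wnt target, fell by 1.45 on the log2 scale (SE 0.31, adjusted p = 0.0186), a call lost without lacZ replicate 2 or 3 or kctd15 replicate 2 and with only the 6 arrays in the fit. The 5 lower Wnt genes became 3 without kctd15 replicate 2, lacZ replicate 2 or lacZ replicate 3, and the 1 higher became 2 without kctd15 replicate 3 or lacZ replicate 3 and with the replicate block.

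In the Notch pathway, dll1.L, a ligand, read 12.76, 12.59 and 12.13 in caps labelled kctd15, against 9.21, 9.87 and 10.45 in lacZ caps (2.65, SE 0.34, adjusted p = 0.00136), and rose at both of its probe sets. The receptor notch1.S read 7.76, 7.98 and 8.82, against 9.45, 10.13 and 10.24 (-1.75, SE 0.32, adjusted p = 0.0079). The ligand gene thus rose while the receptor gene fell, with no overlap between groups in either. Of 26 Notch genes 2 rose and 3 fell (19.2% called), and 4 rose without lacZ replicate 3 or with the replicate block. FGF genes fell in 3 of 39 and rose in 1 (10.3% called, against 8.37% of all genes). With the replicate block, where calls over the whole array rose from 2269 to 4992, 7 fell. Without kctd15 replicate 3, 6 fell, against 0 without kctd15 replicate 1 or 2 and 1 without any 1 of the lacZ arrays. Of 21 retinoic acid genes 1 fell, nr6a1.S, an orphan nuclear receptor of early embryos, with 10.08, 9.55 and 10.31, against 12.18, 12.22 and 12.14 (-2.20, SE 0.18, adjusted p = 0.000137). That made 4.76% of the retinoic acid genes called. With the replicate block, where calls rose over the whole array, 4 retinoic acid genes were called higher.

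Genes of adhesion, matrix and proteolysis fell in 11 of 65 and rose in 1 (18.5% called, median -0.09), and 8 to 10 fell with single arrays left out. The number higher ran from 0 to 2 with single arrays left out and was 5 with the replicate block. itga5.L, the alpha subunit of the fibronectin receptor, read 5.87, 5.67 and 6.82 in caps labelled kctd15, against 9.09, 9.09 and 9.12 in lacZ caps (-2.98, SE 0.28, adjusted p = 0.000303). Its 3 probe sets and that of itga5.S (-1.08, SE 0.13) all fell. sdc1.L, the cell-surface proteoglycan syndecan, fell by 2.55 on the log2 scale (SE 0.36), the glypican gpc4.L by 1.50 (SE 0.20). The calcium-dependent proteases capn2.L (-2.41, SE 0.25) and capn5.S (-1.95, SE 0.26) fell as well.

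In the inflammation and JAK-STAT list 6 of 35 rose and 4 fell (28.6% called, median 0.25). Beside irf1.L among the higher genes, ptgs2.S, the inducible prostaglandin synthase, read 9.03, 8.99 and 8.87 in caps labelled kctd15, against 11.12, 11.54 and 11.43 in lacZ caps (-2.40, SE 0.39, adjusted p = 0.00492), and the kinase gene jak2.L fell by 1.64 on the log2 scale (SE 0.16) at 2 of its 3 probe sets. The 4 lower genes, with mmp3.L and ifi30.L, kept their call with each single array left out. The 6 higher became 2 without kctd15 replicate 1, kctd15 replicate 2 or lacZ replicate 3 and 3 without lacZ replicate 2.

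Of 35 genes of p53, stress and damage 7 rose and 2 fell (25.7% called, median 0.12). gadd45g.L, a growth arrest gene, read 11.44, 11.40 and 11.01, against 9.64, 9.52 and 9.89 (1.60, SE 0.27, adjusted p = 0.00522), its homeolog gadd45g.S rose by 1.54 (SE 0.23), and the repressor gene bcl6.L rose by 1.63 (SE 0.29), a call lost with only the 6 arrays in the fit (adjusted p = 0.0539). The antiproliferative gene btg1.L fell by 0.81 on the log2 scale (SE 0.12). The 7 higher became 4 without kctd15 replicate 1 or lacZ replicate 2, and the 2 lower became 1 without any single array other than kctd15 replicate 3. Cell cycle genes rose in 7 of 74 and fell in 1 (10.8% called, median 0.18). The 7 became 24 with the replicate block, 2 without lacZ replicate 1, and 1 without kctd15 replicate 1, kctd15 replicate 2 or lacZ replicate 2.

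The remaining lists stood near the share over all genes or held few genes. Chaperone genes rose in 1 of 41 and fell in 2 (7.32% called, 7 higher with the replicate block), and neuronal genes rose in 1 of 39 and fell in 3 (10.3% called). Notochord genes rose in 2 of 29 and fell in 1 (10.3% called), cement and hatching gland genes rose in 1 of 12 (8.33% called), placode genes rose in 2 of 19 and fell in 2 (21.1% called), and small secretory cell genes rose in 1 of 11 and fell in 1 (18.2% called). The 3 lower neuronal genes became 1 without kctd15 replicate 1 or lacZ replicate 2 or 3, and the 1 higher became 2 without lacZ replicate 3 or with the replicate block. The 1 lower notochord gene became 0 without kctd15 replicate 1 or 2 or lacZ replicate 1 or 3, and 2 with the replicate block. The 2 lower placode genes became 1 with any single array left out. The 1 higher gene of the cement gland list and of the secretory list lost its call without kctd15 replicate 1 or 2 or lacZ replicate 1 or 2. The 1 higher chaperone gene lost its call without those same arrays and also without kctd15 replicate 3, and the 2 lower became 1 without kctd15 replicate 1.

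**Figure D4:**
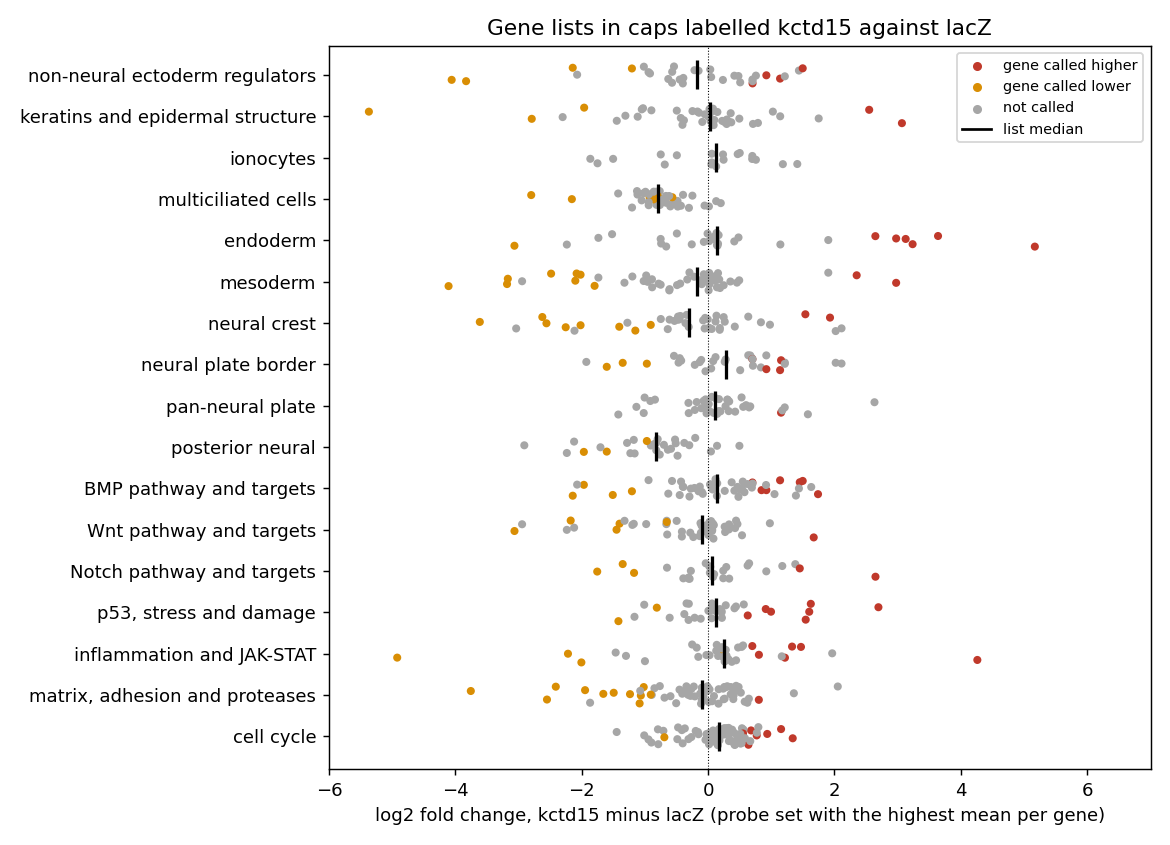
Log2 fold change of caps labelled kctd15 over lacZ caps (horizontal axis) for each gene of 17 lists (rows), at the probe set with the highest mean, with genes called higher in red, called lower in orange, not called in grey and the list median as a black bar. Medians lie between -0.31 and 0.28 except for multiciliated (-0.79) and posterior neural genes (-0.82), and the endoderm row holds the 6 higher genes named in the text.

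Both homeologs were measured for 2009 genes. Of these, 9 were called higher at both, 32 lower at both and 3 in opposite directions, and where 1 homeolog was called, in 275 genes, the other had the same sign in 195. Beside gata5, gata6, tp63, itga5 and meis3, pairs that fell together and were singled out after their values were seen included lims1, an adaptor of integrin adhesions (lims1.L -2.11, lims1.S -2.15), actn1, an actin cross-linker of adhesions (actn1.L -2.30, actn1.S -1.70), and gas6, a secreted ligand of TAM receptor kinases (gas6.L -2.62, gas6.S -2.55). plk2 is 1 of the 3 opposite pairs. plk2.S, a stress-responsive kinase gene, read 11.30, 11.34 and 10.37 in caps labelled kctd15, against 8.55, 8.12 and 8.24 in lacZ caps (2.70, SE 0.29, adjusted p = 0.000574). plk2.L read 5.92, 5.80 and 6.03, against 6.96, 7.42 and 7.62 (-1.42, SE 0.36, adjusted p = 0.0405), a call lost with any single one of the 6 arrays left out.

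In the wnt3a and chordin caps the same probe set for kctd15.L again went against the labels, with 3.52, 6.77 and 5.18 in arrays labelled with kctd15, against 10.99, 10.22 and 10.78 in those without (-5.50, SE 0.80, adjusted p = 0.0156). The lac reporter read 4.96 ± 0.26 in wnt3a and chordin caps labelled with kctd15 and 13.95 ± 0.44 in those without (SD, n = 3 each), a gap not seen between the plain caps, and its part in the results below was not tested.

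With wnt3a and chordin present, caps labelled with kctd15 differed from caps without that label at 210 probe sets (0.647%), 46 higher and 164 lower. This comparison shares no array with the one above, but both take the spread of a probe set from all 12 arrays. A small spread thus favours a call in both. Of these 210, 94 were also called in plain caps in the same direction, which is 44.8% of the 210 and 4.14% of the 2269: 78 lower and 16 higher in both. By gene 31 fell and 10 rose in both settings, and 4 went opposite ways. tp63.L differed by -2.89 (SE 0.43, adjusted p = 0.0178) in the wnt3a and chordin caps beside -3.83 in plain caps, cav1.L by -3.48 (SE 0.61) beside -4.48, itga5.L by -1.92 (SE 0.28) beside -2.98 and ednra.S by -1.68 (SE 0.21) beside -2.56. For these 4 genes the difference between settings did not pass (adjusted p of 0.232 to 0.803). The homeolog tp63.S differed by -1.85 (SE 0.31, adjusted p = 0.0272) beside -3.83 in plain caps. Its difference between settings just missed the threshold (1.98, adjusted p = 0.0649).

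Picked after their values were seen, rasgrp1.L, a Ras activator of lymphocytes in mammals, fell in both settings, by 2.13 on the log2 scale (SE 0.22) in plain caps and by 2.50 (SE 0.22) with wnt3a and chordin, and tat.S, tyrosine aminotransferase, rose in both, by 1.23 and 2.91 (SE 0.18 each). tat.S differed between settings (interaction 1.68, adjusted p = 0.015). dlx5.L rose by 1.14 in plain caps and fell by 1.56 on the log2 scale (SE 0.21, adjusted p = 0.0121) with wnt3a and chordin, an interaction of -2.70 (SE 0.30, adjusted p = 0.00456). The interaction, the difference in wnt3a and chordin caps minus that in plain caps, was called at 371 probe sets (1.14%) over the whole array, and at 134 to 599 with a single array left out, 1063 with the replicate block.

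Several of the largest differences in plain caps had no counterpart past the threshold with wnt3a and chordin, and their interactions were called. gata5.S differed by 0.13 (SE 0.28, adjusted p = 1) with wnt3a and chordin, where it read 5.01 ± 0.12 with kctd15 and 4.88 ± 0.08 without (SD, n = 3 each), and its interaction was -5.04 (SE 0.39, adjusted p = 0.000852). klf2.S differed by 0.09 there (interaction -3.97, adjusted p = 0.000852), pck1.L by 0.05 (interaction -4.66, adjusted p = 0.00349) and gfi1b.L by 0.19 (interaction 4.05, adjusted p = 0.00656). apln.L differed by 0.98 (SE 0.29, adjusted p = 0.284), an interaction of 4.16 (adjusted p = 0.00219). The level of gata5.S was thus low in both wnt3a and chordin groups. That of gfi1b.L was low there too, at 4.29 with kctd15 and 4.10 without, against 8.15 in lacZ caps. Whether such a low level hid a fall was not tested.

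**Figure D5:**
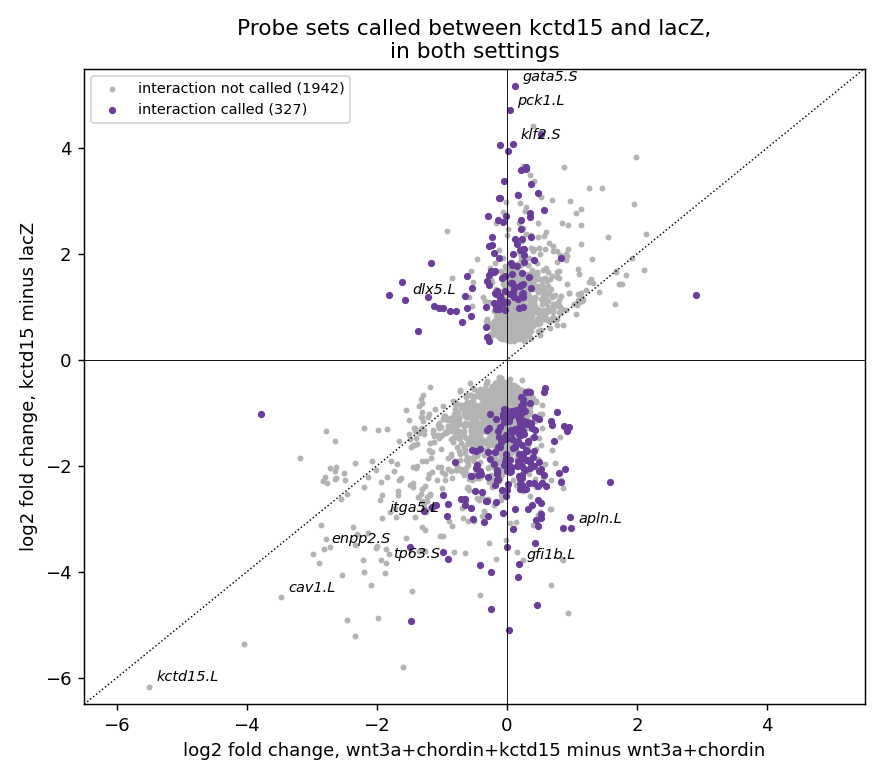
Log2 fold change of caps labelled kctd15 over lacZ caps (vertical axis) against that of wnt3a+chordin+kctd15 over wnt3a+chordin caps (horizontal axis) for the 2269 probe sets called in plain caps, purple where the interaction, which uses the same arrays, was called. Points such as kctd15.L and cav1.L lie near the dotted line of equal differences, while gata5.S, pck1.L and klf2.S lie close to the vertical line at 0.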

How the data were processed

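Total RNA of 12 samples of Xenopus laevis caps, 3 in each of 4 groups set by the sample titles, was measured on Affymetrix arrays. The authors deposited 1 log2 value per probe set and array. Partek was used, per the submitters' processing notes. The version and the way arrays were background-corrected and normalized were not given in the sources used here. A normalization that forces equal distributions would hide a shift of all genes. The 6 arrays of caps labelled kctd15 and lacZ ran from 2.38 to 15.58, with medians of 7.18 to 7.28.

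From the 32635 probe sets, 32475 were tested after removal of 96 control and 64 reporter sets. The platform annotation gave 1 symbol to 15495, several to 279 and none to 16701; no gene was named from a probe set with several. Of the named ones 15384 had gene IDs in the RefSeq table for X. laevis. limma 3.58.1 in R 4.3.3 fitted 4 group means to all 12 arrays, with eBayes and Benjamini-Hochberg adjustment (threshold 0.05); python 3.11.15 made the tables. The fit was also run on simulated data with independent noise in each array. That run cannot show how a fit without a block does on paired arrays. The replicate numbers pair the samples: deviations from group means of same-numbered arrays correlated with r of 0.18 to 0.71 in 18 pairs, against -0.51 to 0.1 in 36 pairs of different number. The main fit has no block, and the block is an alternative.

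A gene was counted by its probe set with the smallest p; list medians use the probe set with the highest mean. Genes were named by rule: per direction the up to 15 largest differences with groups apart, per list up to 4 called members (or, with 0 called, the member with the smallest p), and up to 5 interactions per direction. Defining markers and other uncalled list members are given as values. Genes named otherwise were singled out after their values were seen; besides those marked so in the text, these are gata5.L, pkp2.L, plk4.L, hand1.L, nr2f1.S, itga5.S, gpc4.L, capn5.S, ifi30.L, btg1.L and plk2.L. Members and lists were chosen with earlier results of these data known. Alternatives were the block, the 6 arrays alone, quantile normalization, centring, array weights, a variance trend, leaving out dim probe sets, 1 probe set per gene and leaving out arrays; the list counts under alternatives were added after seeing the data.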

Additional observations from a re-analysis of the deposited data

Results flagged for a closer look

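The genes below had a difference between caps labelled kctd15 and lacZ caps that departed from the difference between caps labelled wnt3a+chordin+kctd15 and wnt3a+chordin caps, by limma's interaction at an adjusted p under 0.05. Values are interactions on the log2 scale, the difference with wnt3a and chordin minus that in plain caps. They contain the 6 plain arrays, so a gene far from 0 in plain caps tends to appear here, and nothing is read from the agreement.

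Among genes that rose in plain caps, transcription factor genes had interactions of -5.04 (gata5.S), -3.97 (klf2.S), -3.74 (irf1.L), -2.70 (dlx5.L), -1.94 (hey1.S) and -1.15 (pitx3.S). Enzyme and kinase genes had -4.66 (pck1.L), -3.35 (prkca.L), -3.31 (spam1.L), -2.96 (acsbg2.L) and -2.34 (plk2.S). The values were -2.68 for arhgap9.L, -2.43 for the Notch ligand dll1.L and -1.63 for gadd45g.S.

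Among genes that fell in plain caps, the adhesion genes bcam.L and cdh26.S had interactions of 4.46 and 2.84. Transcription factor genes had 4.28 (nkx2-3.S), 4.05 (gfi1b.L), 2.94 (tbx3.L), 1.84 (meis3.L), 1.66 (emx2.L), 1.65 (nr6a1.S) and 1.14 (meis3.S). Genes of secreted factors, receptors and kinases had 4.16 (apln.L), 2.71 (sfrp2.S), 2.40 (fzd4.S) and 1.76 (jak2.L), and the basal body gene odf2.L had 1.17. Levels in wnt3a and chordin caps without kctd15 differed among these genes. There gfi1b.L, nkx2-3.S, tbx3.L and fzd4.S averaged 4.10, 5.17, 5.12 and 4.45, against 8.15, 10.37, 10.06 and 8.66 in lacZ caps. By contrast, sfrp2.S and meis3.L averaged 12.71 and 11.84, against 11.12 and 9.88 in lacZ caps. Whether a low level hid a fall was not tested.

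In the remaining 3 genes the difference in plain caps was not called. nodal3.1.L, a ligand gene of the nodal family, differed by -0.65 in plain caps (SE 0.75, adjusted p = 0.746) and by 4.58 with wnt3a and chordin (adjusted p = 0.0263), an interaction of 5.23. dlx6.L, a homeobox gene, differed by 1.21 in plain caps (SE 0.51, adjusted p = 0.218) and by -3.50 with wnt3a and chordin (adjusted p = 0.0161), an interaction of -4.72. crisp1.5.S, a cysteine-rich secretory protein gene, differed by -0.39 (SE 0.61, adjusted p = 0.828) and by -4.87 (adjusted p = 0.00785), an interaction of -4.48.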

How the results depend on the processing

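The 2269 called probe sets became 4992 with the replicate block (2479 higher, 2513 lower, 1063 interactions), 5850 in the 6 arrays alone with the replicate block (2804 higher, 3046 lower) and 873 with 1 probe set per gene (356 higher, 517 lower, 168 interactions), where fewer were tested. Leaving out dim probe sets gave 202 interactions. Leaving out arrays gave 409 to 2364 called, 149 to 874 higher, 260 to 1490 lower and 0 to 599 interactions; without replicate 1 of all groups the interaction was called at 0. Counts under quantile normalization, centring, array weights, a variance trend and the 6 arrays alone were within 1.5 times. Centring moved the share of calls that were lower to 55.2%, against 61.7%. The replicate block moved that share further, to 50.3%, and to 52.1% in the 6 arrays alone with the block. The excess of falls over rises thus depended on the fit. With 1 probe set per gene acsbg2.L stood at -0.0128 and hbg1.L at -0.41, since their brightest probe set is not the one called. Of 91 called genes named by rule, 63 kept their call with each single array left out, 89 under quantile normalization, centring, trend and weights, and 91 with the replicate block, which gained slc4a1.L and changed no other call named by rule. In the 6 arrays alone 20 of the 91 lost their call, and 62% of the 2269 remained. Without replicate 1, 2 or 3 of all groups 64, 45 and 19 lost it. The cause of these shifts was not tested. The number of arrays limits the precision, and signal over background is not given.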

Other observations

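All genes in this section were singled out after their values were seen, and each kept its call in plain caps with any single array left out. Several belong to membranes, adhesions and the cytoskeleton. cav2.L, a caveolin partner of cav1, read 6.46, 5.30 and 6.20 in caps labelled kctd15, against 9.61, 9.78 and 8.62 in lacZ caps (log2 fold change -3.35, SE 0.56, limma adjusted p = 0.00533). cavin1.L, a coat protein of caveolae, read 4.44, 4.76 and 5.20, against 7.81, 7.24 and 7.20 (-2.62, SE 0.26, adjusted p = 0.000444). The groups did not overlap in either gene. fermt1.L, a kindlin that binds integrin tails, fell by 2.35 on the log2 scale (SE 0.31), the myosin light chain myl9.L by 2.95 (SE 0.39), and the tropomyosin homeologs tpm4.L by 1.31 (SE 0.23) and tpm4.S by 1.40 (SE 0.20). anxa5.S, an annexin that binds phosphatidylserine, read 6.65, 6.60 and 6.67 in caps labelled kctd15, against 9.98, 9.27 and 9.26 in lacZ caps (-2.86, SE 0.18, adjusted p = 4.21e-05).

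Secreted factors that fell were mdk.S, the growth factor midkine (-2.89, SE 0.28), and tsku.L, the extracellular signalling modulator tsukushi (-2.94, SE 0.26). nfe2l2.S, the oxidative stress regulator Nrf2, read 8.10, 8.24 and 8.22 in caps labelled kctd15, against 5.99, 6.22 and 6.17 in lacZ caps (2.06, SE 0.25, adjusted p = 0.000953). slc3a2.L, the heavy chain shared by several amino acid transporters, rose by 2.14 (SE 0.25), and slc7a8, a light chain that pairs with it, rose at both homeologs, by 2.49 for slc7a8.S (SE 0.45) and 1.13 for slc7a8.L (SE 0.19). At slc7a8.S lacZ replicate 3 read 7.88, above the 6.08 and 6.14 of the other lacZ arrays.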
